A study of Mus musculus with 2 samples.

Results

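The genes described are the aminoacyl-tRNA synthetases, the enzymes that load amino acids onto tRNA, read in single cells of dysplastic mouse stomach organoids after pyrvinium or DMSO. They were chosen by symbol, as every protein-coding gene in the deposited gene list that fits the symbol pattern of the family. This gave 37 genes of 32227. Of these, 20 carry the symbols of cytosolic enzymes and 17, whose symbols end in 2, those of mitochondrial enzymes. The rule itself uses no measured value. It leaves out Tarsl2, a threonyl-tRNA synthetase gene whose symbol has another form. The organoids are the Meta4 line from the stomach corpus. They came from mice with Mist1-CreERT2Tg/+, an inducible Cre recombinase under the Mist1 promoter, and an oncogenic transgene that Cre switches on. Both groups carry this genotype and the same induction of dysplasia. Organoids of one group were kept for 1 day with pyrvinium, a drug used against intestinal worms, and those of the other for as long with the solvent DMSO. Each group is 1 library of 1 organoid line, so no difference below has a replicate check. Intervals are 95% intervals and cover the error of counting alone. The words "higher" and "lower" always set the pyrvinium library against the DMSO library.

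Each synthetase recognises one amino acid and joins it to the matching tRNAs, which then serve the ribosome. Cytosolic and mitochondrial translation use separate sets of these enzymes, almost all encoded by separate nuclear genes, while Gars and Kars are known to supply both compartments. There is no separate mitochondrial glutamine enzyme, and that tRNA is charged through Ears2 and the amidotransferase made of Qrsl1, Gatb and Gatc. Several cytosolic synthetases sit together with the scaffolds Aimp1, Aimp2 and Eef1e1 in the multisynthetase complex. When amino acids run short or translation initiation is restrained, the transcription factor ATF4 is known to raise the transcripts of many cytosolic synthetases along with those of amino acid synthesis and uptake.

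A barcode was taken as a cell from 13100 counts in the pyrvinium library and from 9320 counts in the DMSO library. This left 854 pyrvinium and 1602 DMSO cells, with medians of 31517 and 18592 counts per cell and sums of 37046673 and 39980497 counts. The libraries shared 12981 barcodes over all listed barcodes and 0 among the kept cells. Markers matched the label of an epithelial organoid: the 6 epithelial genes summed to 5375 CPM (counts per 1000000 counts) with pyrvinium and 8199 CPM with DMSO. The gastric genes Tff1 and Cldn18 were at 404 and 749 CPM with pyrvinium and 333 and 708 CPM with DMSO, while Muc5ac and Gkn2 had at most 4 counts in either library. Of the 6 fibroblast markers, which summed to 0.810 CPM with pyrvinium and 1.03 CPM with DMSO, none was at 0 in both libraries. Of the 6 immune markers, Lyz2 and C1qa were at 0 in both, and Cd68 made up most of the sum of 29.4 CPM with pyrvinium and 21.5 CPM with DMSO. Cdh5 made up most of the endothelial sum of 58.9 and 43.2 CPM. Mitochondrially encoded genes took 1.63% of the counts with pyrvinium and 2.57% with DMSO, and ribosomal protein genes 30.6% and 25.9%. Cell cycle genes differed between the libraries: S phase genes summed to 594 CPM with pyrvinium and 1253 CPM with DMSO, and G2M genes to 1853 and 3044 CPM.

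Most cytosolic synthetase transcripts were higher with pyrvinium, while most mitochondrial ones were level or lower, with Fars2 and Iars2 as exceptions. Summed, the 20 cytosolic genes took 1498 CPM of the pyrvinium library and 1144 CPM of the DMSO library. The 17 mitochondrial genes took 238 CPM and 248 CPM. Fars2, itself higher, gave 80.5 and 59.3 CPM of these sums. All 37 genes had at least 20 counts in the libraries together, the limit for being measured. A gene was called different when its ratio was at least 1.5-fold and the whole interval lay on that side of 1. By this rule 5 of 20 cytosolic genes were higher and 0 lower, against 0 higher and 7 lower of the 17 mitochondrial genes. Of all 15586 genes measured, 7.57% were called higher and 15.5% lower. The median log2 ratio of pyrvinium over DMSO was 0.42 for the cytosolic genes, -0.24 for the mitochondrial genes and -0.08 for all genes. Scaled by the median of ratios instead of the total, 1558 of all genes were called higher and 1952 lower, in place of 1180 and 2416. The members' counts were then 6 cytosolic genes higher and 4 mitochondrial genes lower, and they were the same when mitochondrially encoded and ribosomal protein genes were left out of the scaling total. With a limit of 5/4-fold, 11 cytosolic and 1 mitochondrial gene were called higher and 7 mitochondrial genes lower, beside 14.5% and 25.3% of all genes. With a limit of 2-fold, 0 members were called higher and 2 mitochondrial genes lower, beside 3.34% and 6.73% of all genes.

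**Figure D1:**
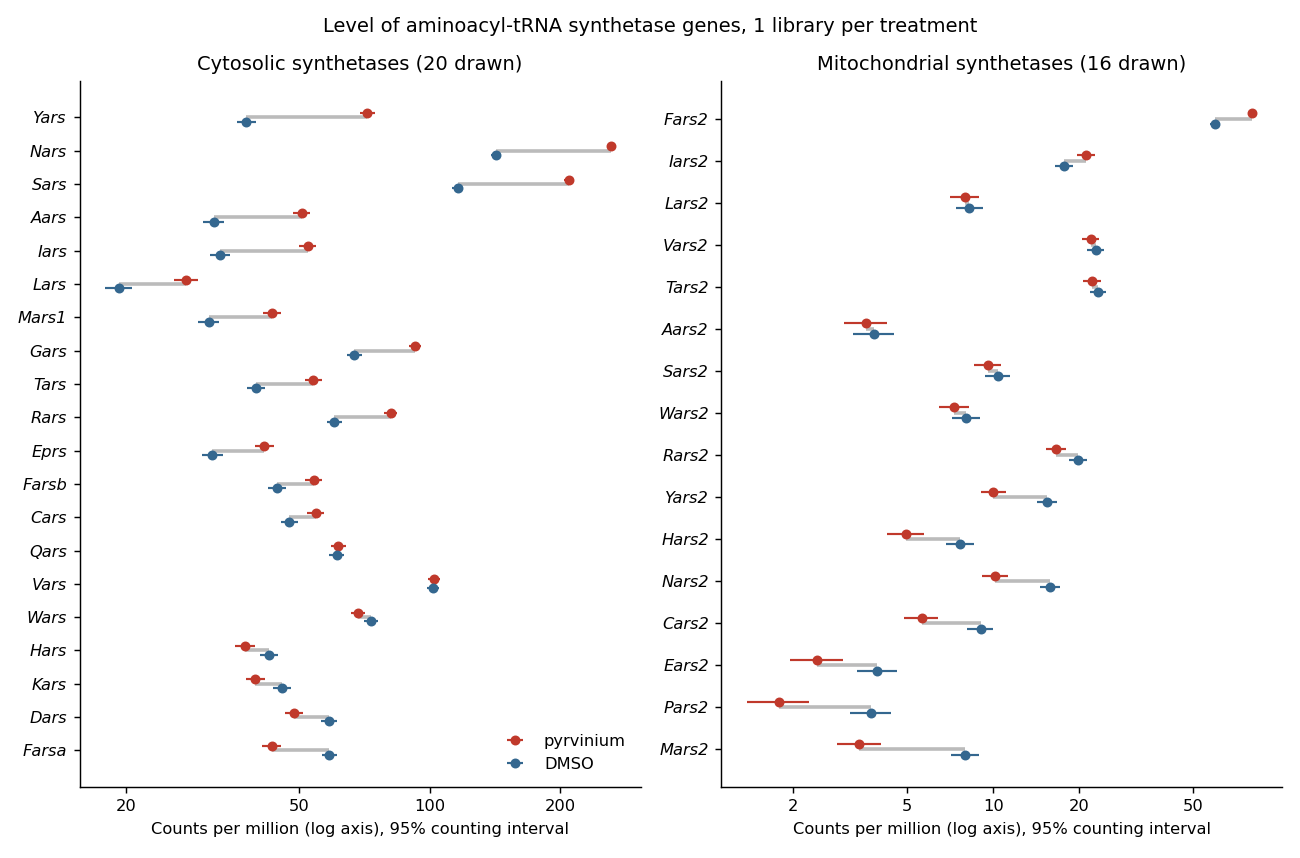
Level of each gene in CPM of the summed cells (log axis) with its 95% counting interval, pyrvinium above DMSO in each row, cytosolic genes on the left and mitochondrial genes on the right, ordered by ratio (36 of the 37 genes are drawn). Yars, Nars and Sars show the widest gaps to the right of DMSO, and Mars2 and Pars2 the widest gaps to the left.

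The 5 cytosolic genes called higher encode the enzymes for tyrosine, asparagine, serine, alanine and isoleucine. Nars (ENSMUSG00000024587), the asparaginyl enzyme, was at 262 CPM (interval 257 to 267) with pyrvinium and 142 CPM (138 to 146) with DMSO, from 9713 and 5677 counts. Its ratio was 1.85-fold (log2 0.88, interval 0.84 to 0.93). Sars (ENSMUSG00000068739), the seryl enzyme, was at 209 CPM (204 to 214) with pyrvinium and 116 CPM (113 to 120) with DMSO, a ratio of 1.80-fold (log2 0.85, interval 0.80 to 0.90). For neither gene do the intervals of the 2 libraries come near each other. Yars (ENSMUSG00000028811), the tyrosyl enzyme, had the highest ratio of the family, 1.90-fold (log2 0.93, interval 0.84 to 1.02), with 71.9 CPM (69.2 to 74.7) in pyrvinium cells and 37.8 CPM (35.9 to 39.8) in DMSO cells. Aars (ENSMUSG00000031960), the alanyl enzyme, was at 50.8 CPM (48.5 to 53.1) with pyrvinium and 31.8 CPM (30.1 to 33.6) with DMSO, 1.60-fold higher. Iars (ENSMUSG00000037851), the isoleucyl enzyme of the multisynthetase complex, was at 52.4 CPM (50.1 to 54.8) with pyrvinium and 32.9 CPM (31.2 to 34.7) with DMSO, 1.59-fold higher. The lower bounds of Aars and Iars, at log2 0.57 each, lie just under the 1.5-fold limit. In the GENCODE M21 annotation, the end of Yars lies within C77080 on the other strand, which was itself 1.41-fold higher, and the end of Aars lies within Exosc6, which was 2.51-fold lower. Exosc6 lies on the strand of Aars, so strand would not separate their reads. For C77080 it would, but whether the counting used strand is not given in the sources used here.

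Promoter windows of members were searched because ATF4 is known to bind, with partners of the C/EBP family, at elements whose core reads TGATGNAA. RefSeq windows (build GRCm38.p6) reach from 250 bases before to 50 bases after a transcription start and were matched by symbol for 27 of the 37 genes. TGATGNAA on either strand was found in 5 of 13 cytosolic genes with a window, in 0 of 14 mitochondrial ones, and in 3.97% of all 32851 windows. The 5 are Aars, Iars, Yars, Tars and Gars, and all of them had a ratio above 1 with the whole interval above 1. Sars, Mars1, Eprs and Farsb, whose intervals also lay above 1, have a window without these letters. No match says only that the letters are not in that window, and a match says only that they are. Binding of ATF4 at these windows was not tested. Nars, Lars, Rars and Cars, whose intervals lay above 1 as well, have no window and could not be searched. The windows of the 5 genes with a match follow from -250 to 30, in the direction of the gene, with each match in capitals. Positions are counted from the start at 1, with no position 0. A match on the opposite strand appears as its reverse complement. They lie at chr8:111033592-111033871 (plus strand), chr13:49681880-49682159 (plus strand), chr4:129189653-129189932 (plus strand), chr15:11399629-11399908 (minus strand) and chr6:55037751-55038030 (plus strand).
Aars: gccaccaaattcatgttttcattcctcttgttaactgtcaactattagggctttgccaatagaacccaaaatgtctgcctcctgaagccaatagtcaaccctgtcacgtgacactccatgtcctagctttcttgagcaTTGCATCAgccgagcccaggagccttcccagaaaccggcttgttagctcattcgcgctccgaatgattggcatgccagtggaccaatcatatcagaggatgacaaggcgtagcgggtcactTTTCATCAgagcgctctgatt
Iars: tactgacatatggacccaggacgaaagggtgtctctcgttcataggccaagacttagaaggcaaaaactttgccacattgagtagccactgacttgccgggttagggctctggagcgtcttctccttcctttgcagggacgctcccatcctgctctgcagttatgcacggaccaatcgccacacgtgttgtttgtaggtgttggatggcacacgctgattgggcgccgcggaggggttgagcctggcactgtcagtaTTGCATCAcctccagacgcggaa
Yars: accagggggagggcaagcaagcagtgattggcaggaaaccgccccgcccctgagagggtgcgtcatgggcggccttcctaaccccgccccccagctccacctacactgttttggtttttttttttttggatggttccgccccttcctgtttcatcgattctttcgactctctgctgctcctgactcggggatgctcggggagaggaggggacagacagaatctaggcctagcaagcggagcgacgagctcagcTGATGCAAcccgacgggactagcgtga
Tars: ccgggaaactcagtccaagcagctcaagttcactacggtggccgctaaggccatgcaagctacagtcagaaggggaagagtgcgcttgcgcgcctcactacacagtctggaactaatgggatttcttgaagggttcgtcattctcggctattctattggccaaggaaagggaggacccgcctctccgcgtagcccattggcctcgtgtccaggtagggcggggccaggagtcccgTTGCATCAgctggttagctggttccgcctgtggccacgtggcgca
Gars: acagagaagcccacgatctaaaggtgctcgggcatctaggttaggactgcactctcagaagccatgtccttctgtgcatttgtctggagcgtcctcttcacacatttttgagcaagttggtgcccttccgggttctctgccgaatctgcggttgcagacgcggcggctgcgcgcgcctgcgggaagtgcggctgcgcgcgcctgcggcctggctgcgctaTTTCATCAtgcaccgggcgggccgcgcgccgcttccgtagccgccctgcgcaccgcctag
Aars holds a match on each side of the start, from -112 to -105 and from 10 to 17. Iars, Yars and Tars hold one each close to the start, at 8 to 15, 4 to 11 and -15 to -8, and Gars one at -30 to -23. The E-box CACGTG, a site of the Myc family, was found in 4 of 13 cytosolic and 1 of 14 mitochondrial genes and in 7.15% of all windows. It stands in the windows of Aars, Iars, Tars, Farsb and Ears2 and overlaps none of the other matches. Myc itself was at 30.6 CPM with pyrvinium and 66.6 CPM with DMSO.

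Below the 1.5-fold limit, 8 more cytosolic genes had ratios whose whole interval was above 1. An interval above 1 at any size was seen in 13 of 20 cytosolic genes, and in 21.7% of all measured genes. Lars, the leucyl enzyme, known in human cells also as a leucine sensor for mTORC1, was at 27.5 CPM (25.8 to 29.2) with pyrvinium and 19.2 CPM (17.9 to 20.6) with DMSO, 1.43-fold. Gars, the glycyl enzyme, was at 92.6 CPM with pyrvinium and 67.1 CPM with DMSO, 1.38-fold. Tars, the threonyl enzyme, was at 54.0 and 39.9 CPM, and Rars, the arginyl enzyme, at 81.4 and 60.4 CPM, pyrvinium before DMSO in both. Eprs, which carries the glutamyl and the prolyl activity in one protein, was at 41.7 CPM with pyrvinium and 31.6 CPM with DMSO, a log2 ratio of 0.40. The smallest of these ratios were those of Farsb (log2 0.28) and of the cysteinyl gene Cars (log2 0.20, interval 0.11 to 0.29).

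Mars1, the methionyl enzyme, was at 43.4 CPM with pyrvinium and 31.0 CPM with DMSO, a log2 ratio of 0.49 (interval 0.38 to 0.59). Its end lies within Ddit3 on the other strand in the GENCODE M21 annotation. Ddit3 was at 311 CPM with pyrvinium and 39.1 CPM with DMSO. How far Ddit3 reads enter the value of Mars1 was not tested, and its ratio is uncertain for that reason.

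The remaining 7 cytosolic genes were level or lower with pyrvinium. Qars, the glutaminyl enzyme, was at 61.7 CPM (59.2 to 64.3) with pyrvinium and 61.1 CPM (58.7 to 63.6) with DMSO. Vars, the valyl enzyme, was at 102 CPM in each library, with a log2 ratio of 0.01 (interval -0.06 to 0.07). These 2 genes differed by less than their counting error. Wars, the tryptophanyl enzyme, which interferon gamma induces in human cells, was at 68.5 CPM with pyrvinium and 73.4 CPM with DMSO. Among 11 measured interferon response genes 1 was called lower and 10 higher, such as Irf7 at 10.7 CPM with pyrvinium and 1.13 CPM with DMSO. Of all measured genes, 7.57% were called higher and 15.5% lower. Among the 20 cytosolic genes, the 3 lowest ratios were those of Farsa, Dars and Kars. Tarsl2, which the symbol rule leaves out, was at 1.89 CPM with pyrvinium and 2.60 CPM with DMSO. Its log2 ratio was -0.46 (interval -0.92 to -0.01). Farsa (ENSMUSG00000003808), one of the subunits of the cytosolic phenylalanyl enzyme, was at 43.3 CPM (41.2 to 45.4) with pyrvinium and 58.8 CPM (56.5 to 61.2) with DMSO, 1.36-fold lower. Farsb, the partner subunit of the same enzyme, was at 54.1 CPM with pyrvinium and 44.5 CPM with DMSO. The subunits of this one enzyme thus lay on opposite sides of 1. The end of Farsb lies within Sgpp2 on the other strand, which had 603 counts with pyrvinium and 812 with DMSO. Dars, the aspartyl enzyme, was at 48.7 CPM (46.5 to 51.1) with pyrvinium and 58.7 CPM (56.3 to 61.1) with DMSO. Kars, the lysyl enzyme, was at 39.7 CPM (37.7 to 41.8) with pyrvinium and 45.7 CPM (43.7 to 47.9) with DMSO. Hars, the histidyl enzyme, had a log2 ratio of -0.18. The 5 genes Farsa, Dars, Kars, Hars and Wars are the cytosolic members whose interval lay below 1, as it did for 33.5% of all genes. The direction of the small ratios of Cars, Dars, Hars, Qars, Vars and Wars turned in at least 1 of 11 alternative settings, whereas that of the other 14 cytosolic genes did not.

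**Figure D2:**
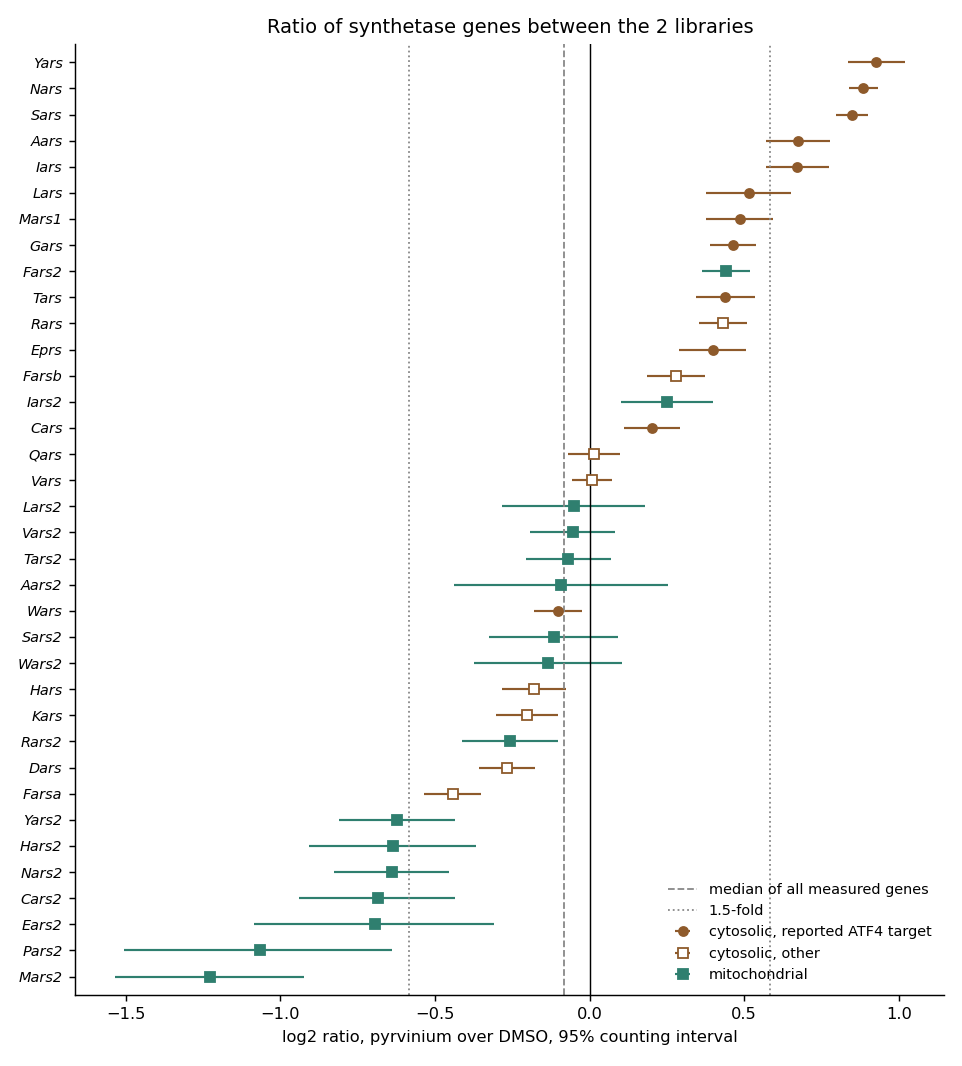
log2 ratio of pyrvinium over DMSO for 36 of the 37 genes with 95% counting intervals, in falling order, with filled brown circles for cytosolic genes reported as ATF4 targets, open squares for other cytosolic genes and green squares for mitochondrial genes. Yars, Nars and Sars stand at the top, mitochondrial genes fill the lowest 7 places, the dashed line is the median of all measured genes at -0.08, and the dotted lines mark 1.5-fold.

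Known biology divides the cytosolic genes in ways the selection did not use. The 12 genes that have been reported as ATF4 targets in other cells had a median log2 ratio of 0.50, with 5 called higher, 0 lower and an interval above 1 in 11 of 12. The exception was Wars. The other 8 cytosolic genes had a median of -0.09, with none called, an interval above 1 in 2 (Rars and Farsb) and below 1 in 4. Summed, the reported targets took 1029 CPM of the pyrvinium library and 670.5 CPM of the DMSO library, and the other 8 took 469 and 474 CPM. The 27 listed ATF4 program genes outside the family had a median of 0.88, with 19 called higher and 1 lower. Of all measured genes, 7.57% were called higher and 15.5% lower, with a median of -0.08. An interval above 1 was seen in 21.7% of all measured genes and an interval below 1 in 33.5%. Atf4 itself was at 244 CPM with pyrvinium and 132 CPM with DMSO. Membership of the multisynthetase complex did not divide the genes in this way: its 8 enzymes had a median of 0.42 with 1 called higher, and the 12 enzymes outside it a median of 0.36 with 4 called higher. The structural classes of the catalytic domain lay as close, with medians of 0.43 over 9 class I and 0.36 over 10 class II cytosolic genes. These lists were written with earlier results of these data known, so the counts describe the libraries and are no independent support.

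The mitochondrial genes called lower encode the enzymes for methionine, proline, glutamate, cysteine, asparagine, histidine and tyrosine. Mars2 (ENSMUSG00000046994), the mitochondrial methionyl enzyme, was at 3.40 CPM (2.83 to 4.05) with pyrvinium and 7.95 CPM (7.10 to 8.88) with DMSO, from 126 and 318 counts. It was 2.34-fold lower (log2 -1.23, interval -1.54 to -0.92). Pars2 (ENSMUSG00000043572), the prolyl enzyme, was at 1.78 CPM (1.38 to 2.27) with pyrvinium and 3.73 CPM (3.15 to 4.38) with DMSO, 2.09-fold lower. It had the fewest counts of the 37 genes, 66 and 149. For both genes the intervals of the libraries are well apart.

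Ears2, the glutamyl enzyme that also serves the mitochondrial glutamine tRNA, was at 2.43 CPM (1.95 to 2.99) with pyrvinium and 3.93 CPM (3.34 to 4.59) with DMSO, 1.62-fold lower. Cars2, the cysteinyl enzyme, was at 5.61 CPM (4.88 to 6.43) with pyrvinium and 9.03 CPM (8.12 to 10.01) with DMSO, 1.61-fold lower. Nars2, the asparaginyl enzyme, was at 10.1 CPM (9.15 to 11.2) with pyrvinium and 15.8 CPM (14.6 to 17.1) with DMSO, 1.56-fold lower. In these genes too the pyrvinium interval ended below the DMSO interval. The end of Cars2 lies within Naxd on the other strand, which had 3548 counts with pyrvinium and 3509 with DMSO. Hars2, the histidyl enzyme, was at 4.94 CPM (4.25 to 5.71) with pyrvinium and 7.68 CPM (6.84 to 8.59) with DMSO, 1.55-fold lower. Yars2, the tyrosyl enzyme, was at 10.01 CPM (9.02 to 11.1) with pyrvinium and 15.4 CPM (14.2 to 16.7) with DMSO, 1.54-fold lower. The ratios of these 5 genes lie near the limit, and in 11 alternative settings they were called lower in 4 (Yars2) to 8 (Cars2). Mars2 and Pars2 were called lower in all 11.

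Fars2 (ENSMUSG00000021420), the mitochondrial phenylalanyl enzyme, was the mitochondrial gene with the highest ratio, at 80.5 CPM (77.6 to 83.4) with pyrvinium and 59.3 CPM (56.9 to 61.7) with DMSO, 1.36-fold higher. Iars2, the isoleucyl enzyme, followed at 21.1 CPM (19.6 to 22.6) with pyrvinium and 17.7 CPM (16.4 to 19.1) with DMSO. They are the only mitochondrial members with an interval above 1, and Iars2 turned below 1 in 1 of the 11 settings. The end of Iars2 lies within Rab3gap2 on the other strand, which had 383 counts with pyrvinium and 454 with DMSO. The third highest was Lars2, the leucyl enzyme, at 7.96 CPM (7.08 to 8.93) with pyrvinium and 8.25 CPM (7.39 to 9.19) with DMSO. The intervals of Lars2, Vars2, Tars2, Aars2, Sars2 and Wars2, with log2 ratios from -0.13 to -0.05, all held 1. Rars2, the arginyl enzyme, had a log2 ratio of -0.26 with an interval just below 1. The ratio turned direction in at least 1 setting for Aars2, Iars2, Lars2, Sars2, Tars2 and Vars2. In cells that were called in neither S nor G2M, the median of the mitochondrial genes was -0.035, with 6 called lower. In the same cells the median of all genes was -0.075, and 14.6% of them were called lower. The part of the cell cycle difference in the lower values was not tested otherwise.

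For 16 amino acids the family holds both a cytosolic and a mitochondrial gene, which gives 17 pairs because Farsa and Farsb each pair with Fars2. The cytosolic gene had the higher ratio in 14 of 17 pairs, and the intervals of the ratios were apart in that direction in 12. The gap was widest for methionine, where Mars1 was at log2 0.49, uncertain for its overlap with Ddit3, and Mars2 at -1.23. It followed for tyrosine, with Yars at 0.93 and Yars2 at -0.62, and for asparagine, with Nars at 0.88 and Nars2 at -0.64. The enzymes for one amino acid in the 2 compartments therefore lay on opposite sides of 1 in these cases. For valine and tryptophan the intervals of both compartments overlapped, as did those of Farsb and Fars2. Phenylalanine ran the other way, with Farsa at -0.44 and Fars2 at 0.44. Hars and Hars2 are neighbours on opposite strands whose annotated bodies overlap, so their counts may share reads.

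**Figure D3:**
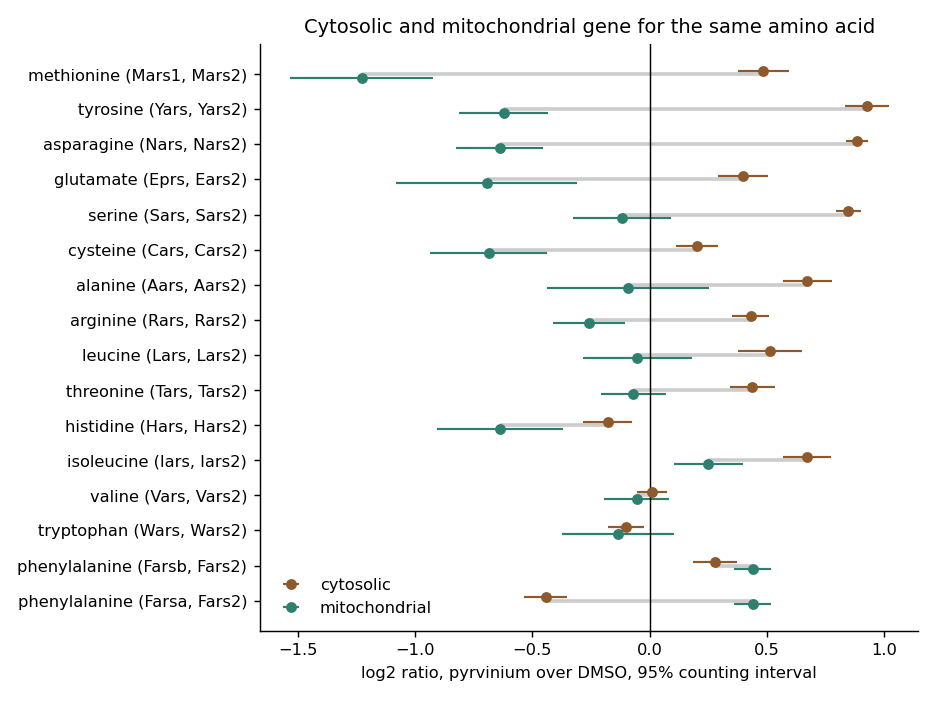
log2 ratio of pyrvinium over DMSO (x axis) with 95% counting intervals for the cytosolic and the mitochondrial gene of an amino acid, ordered by the gap between them. The brown cytosolic points lie to the right in 14 of the 16 pairs drawn, and Farsa with Fars2 is the clear exception.

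None of the scaffolds and accessory factors of tRNA charging was called higher with pyrvinium. As 7.57% of all measured genes were called higher and 15.5% lower, counts of 0 or 1 in lists this short are near those shares. Of the complex scaffolds, Aimp1 was at 121 CPM with pyrvinium and 119 CPM with DMSO, and Eef1e1 at 89.3 and 92.5 CPM. Aimp2, in contrast, was at 50.7 CPM (48.4 to 53.0) with pyrvinium and 129 CPM (126 to 133) with DMSO, 2.55-fold lower. The ratio of Aimp2 (log2 -1.35, interval -1.43 to -1.28) was below that of any synthetase, while its partner scaffolds differed by less than counting error. The interval of Aimp2 lay within that of Mars2 (-1.54 to -0.92) and overlapped that of Pars2 (-1.51 to -0.64). Among 12 accessory genes of tRNA charging and export, 0 were called higher and 1 lower, with a median log2 ratio of -0.06. That one was Prorsd1, named for its likeness to a prolyl-tRNA synthetase domain, at 26.2 CPM with pyrvinium and 39.8 CPM with DMSO. Dtd2, which removes wrongly attached residues from tRNA, was at 19.3 CPM with pyrvinium and 27.1 CPM with DMSO. Mtfmt, which formylates the mitochondrial initiator tRNA after Mars2 has charged it, was at 9.88 and 13.3 CPM in the same order. Gatb, a subunit of the mitochondrial amidotransferase, was at 8.18 CPM with pyrvinium and 10.4 CPM with DMSO.

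Of 9 elongation factors that receive or use charged tRNA, 0 were called in either direction, and the median was 0.11. Among all measured genes 7.57% were called higher and 15.5% lower, with a median of -0.08. Eef1b2, a nucleotide exchange subunit of cytosolic elongation, was at 1029 CPM with pyrvinium and 809 CPM with DMSO, and the mitochondrial factor Tufm at 80.1 and 99.9 CPM. Of 10 genes that process or modify mitochondrial tRNA, 1 was called higher and 2 lower (median -0.32). Mto1, a tRNA-modifying enzyme, was at 31.8 CPM with pyrvinium and 19.5 CPM with DMSO, and Prorp, the nuclease of mitochondrial RNase P, at 7.75 and 13.4 CPM. The 78 mitochondrial ribosomal protein genes had a median of -0.14, with 0 called higher and 4 lower. Mrpl18 had the lowest ratio among them, at 94.3 CPM with pyrvinium and 181 CPM with DMSO. The mitochondrial synthetases were called lower in a larger share of genes than this list, 7 of 17 against 4 of 78, though a difference between the lists was not tested. The lists differ in level, at 238 and 248 CPM over the 17 genes and 10978 and 11745.5 CPM over the 78, pyrvinium before DMSO. In alternative settings the 7 fell to as few as 3.

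Within each of the 4 clusters shared by both libraries, Nars, Sars and Yars were called higher. Aars and Iars were called higher in 3 of them, and in cluster 5 their intervals held 1. Kept cells were clustered without the synthetase genes, which gave 5 clusters, and 4 of them held at least 30 cells of each library. Values were z-scored within each library first, so a cluster joins cells by their standing within their own library. Leading genes were ranked on the counts of both libraries pooled, so unequal cell numbers of the libraries can enter that ranking. Cluster 1, led by mitotic genes such as Plk1, Ccnb1 and Cdc20, held 142 pyrvinium and 594 DMSO cells. S phase genes summed to 1158 CPM in its pyrvinium cells and 1888 CPM in its DMSO cells. There 12 of 20 cytosolic genes were called higher and 0 lower (median log2 ratio 0.75), against 11.1% of all genes called higher. Nars was at 382 CPM in pyrvinium cells of this cluster and 145 CPM in its DMSO cells, and Sars at 254 and 99.9 CPM. Gars was at 144 CPM with pyrvinium and 68.7 CPM with DMSO in the same cluster. These are the widest ratios of Nars, Sars and Gars among the 4 clusters.

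In cluster 2, led by Spink4, Kcne3 and Tff3 (253 pyrvinium and 324 DMSO cells), 8 cytosolic genes were called higher and 0 lower, against 6.55% of all genes called higher. In cluster 3, led by Dusp4, Kif13a and Ddit3 (408 and 161 cells), 7 were called higher and 0 lower, against 8.24% of all genes. Cluster 5, led by Itln1, Ifitm1 and Mmp7 (50 and 221 cells), had 3 higher and 3 lower, with 5.22% of all genes called higher and 32.7% lower, and a median of all genes of -0.55. Wars was one of the lower genes there, at 34.2 CPM in pyrvinium cells and 89.99 CPM in DMSO cells, while its log2 ratio was between 0.01 and 0.15 in the other 3. The ratio was above 1 in all 4 shared clusters for 9 cytosolic genes, namely Aars, Cars, Gars, Iars, Mars1, Nars, Sars, Tars and Yars. For Gars, Nars, Sars and Yars the interval was above 1 in each of the 4, and for Farsa it was below 1 in each.

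The mitochondrial genes also differed from cluster to cluster. Of the measured members, 4 of 17 were called lower in cluster 1 (median -0.12), 0 of 17 in cluster 2 (median 0.042), 7 of 17 in cluster 3 (median -0.48) and 6 of 14 in cluster 5 (median -0.66). The shares of all genes called lower were 11.5% in cluster 1, 8.42% in cluster 2, 18.7% in cluster 3 and 32.7% in cluster 5. Sars2 was the single mitochondrial gene called higher, in cluster 2. Yars2 was the one mitochondrial gene with its interval below 1 in each of the 4 clusters, and Fars2 the one with its interval above 1 in each. Mars2 was at 1.84 CPM in pyrvinium cells of cluster 3 and 5.48 CPM in its DMSO cells, whereas in cluster 2 it was at 5.69 and 7.55 CPM with an interval that held 1. Pars2, lower in the sums, had a log2 ratio of 0.22 in cluster 2. Cluster 4 held 1 pyrvinium and 302 DMSO cells and allowed no ratio. Its DMSO cells, with Cited1 among their leading genes, had Sars at 182 CPM and Cars at 77.6 CPM, against 99.9 to 109 CPM and 28.5 to 47.0 CPM in the other DMSO clusters. Farsa and Hars were lower there, at 28.6 and 22.4 CPM, against 55.6 to 73.3 CPM and 32.3 to 54.5 CPM. The cytosolic genes summed to 1158 CPM there, within the 1068 to 1202 CPM of the other DMSO clusters. The mitochondrial genes summed to 172 CPM there, against 237 to 277 CPM in the other DMSO clusters.

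**Figure D4:**
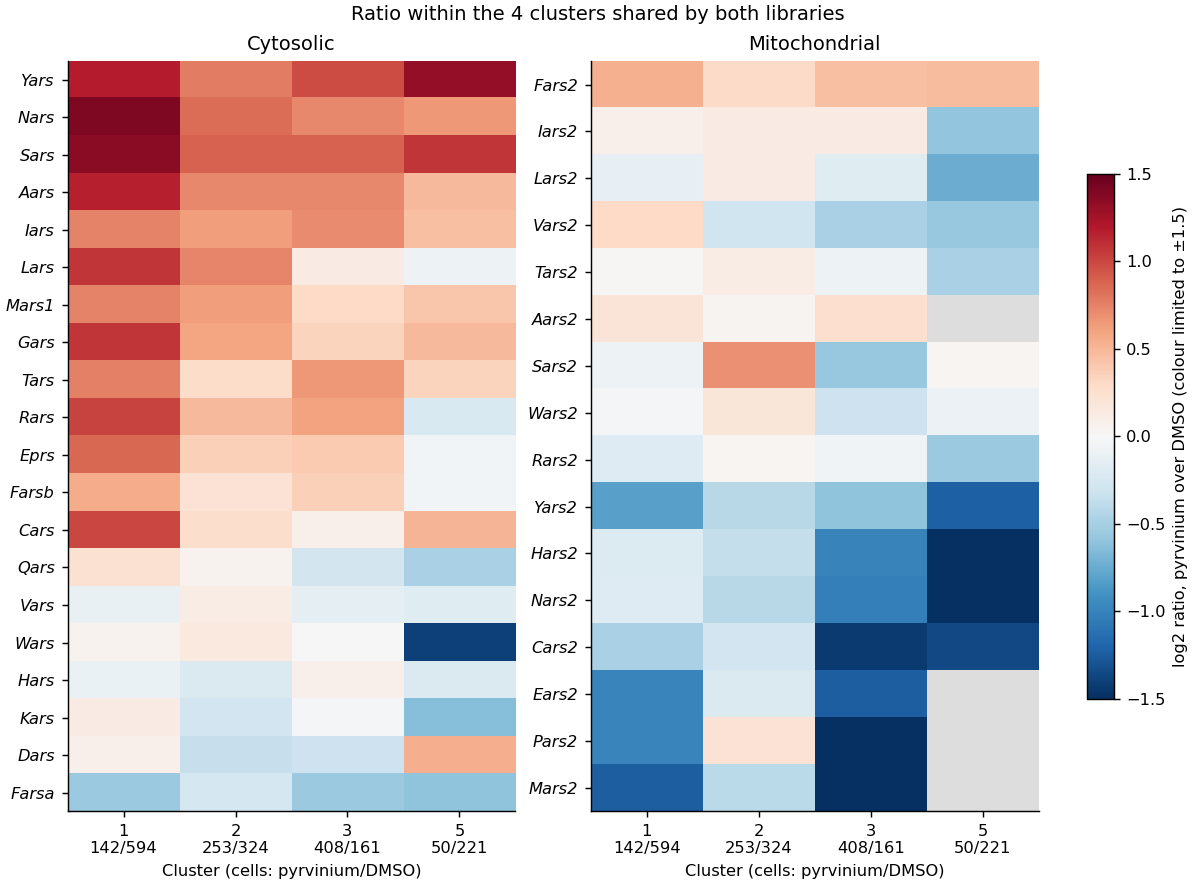
log2 ratio of pyrvinium over DMSO within each of the 4 clusters shared by both libraries (red higher, blue lower, colour limited to 1.5; 36 of the 37 genes), with cell numbers under each column. Grey marks a gene with fewer than 20 counts in the cluster or with 0 in a library. The top 5 cytosolic rows are red in all 4 columns, and the lower mitochondrial rows are darkest in clusters 3 and 5.

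Cells were compared at one depth by drawing 5000 counts from each. Pyrvinium cells then held a median of 7 cytosolic synthetase counts, with quartiles of 5 and 10. DMSO cells held a median of 5, with quartiles of 4 and 8. At least 10 such counts were found in 26.0% of pyrvinium cells and 11.0% of DMSO cells. The distributions overlap widely, and the quartiles and the median were each higher in pyrvinium cells. The mitochondrial genes gave a median of 1 count per cell in both libraries (quartiles 0 and 2 in each), too few to describe single cells. The share of cells with at least 1 such count was 68.7% in pyrvinium cells and 68.8% in DMSO cells. No cell type that lacks these housekeeping transcripts was present to serve as a background for free RNA.

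**Figure D5:**
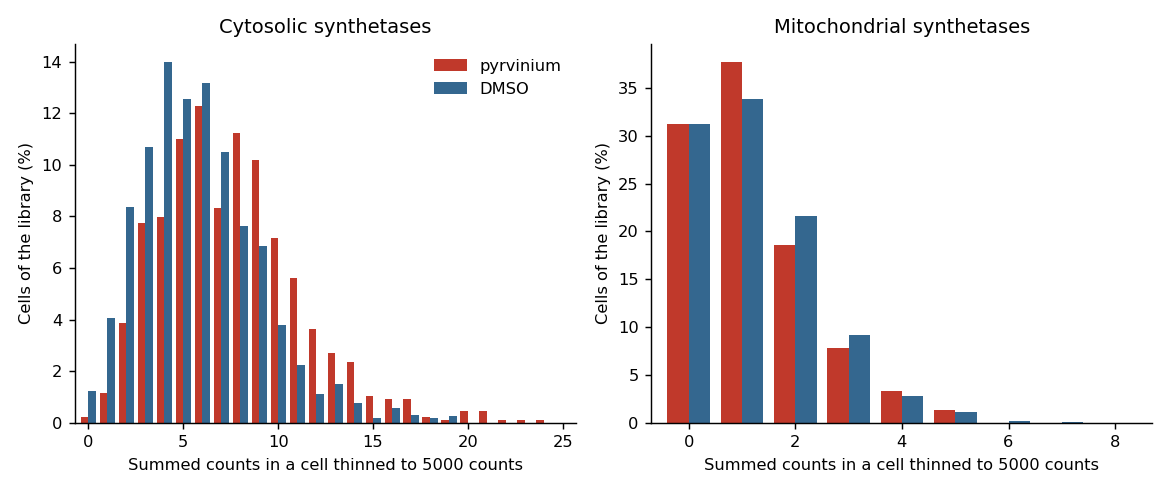
Share of the cells of each library (y axis, %) by their summed synthetase counts after thinning to 5000 counts per cell (x axis), pyrvinium bars left of DMSO bars. The cytosolic distribution of pyrvinium cells, with a median of 7, lies to the right of that of DMSO cells, with a median of 5, while the mitochondrial distributions both have a median of 1.

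DMSO cells already differed among themselves along the stress genes Ddit3 and Trib3. After thinning, 266 of 1602 DMSO cells and 592 of 854 pyrvinium cells had a count of either gene. Among DMSO cells, those with such a count held a median of 7 cytosolic synthetase counts and those without a median of 5. In the unthinned sums of the same DMSO cells, Sars was at 194 CPM with a Ddit3 or Trib3 count and 102 CPM without, and Nars at 199.8 and 131 CPM. Cars was at 78.5 CPM in DMSO cells with such a count and 41.7 CPM in those without, a wider gap (log2 0.91) than between the libraries (log2 0.20). The library ratio of Cars ranged from log2 -0.09 to 0.51 over the 11 alternative settings, and from 0.08 to 1.00 within the 4 shared clusters. Of the 20 cytosolic genes, 9 had an interval above 1 in this division of DMSO cells and 3 below, and of the 17 mitochondrial genes 0 and 8. Of all genes measured in this division, 13.7% had an interval above 1 and 22.6% below, with a median of -0.11, against medians of 0.18 for the cytosolic and -0.37 for the mitochondrial genes.

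Among pyrvinium cells the same division gave 7 cytosolic genes with an interval above 1 and 4 below, and 0 and 10 of the mitochondrial genes. Of all genes, 10.2% had an interval above 1 and 25.8% below, with a median of -0.12. The medians were -0.02 for the cytosolic and -0.35 for the mitochondrial genes. Sars was at 223 CPM in pyrvinium cells with a Ddit3 or Trib3 count and 173 CPM in those without, and Yars at 77.0 and 58.7 CPM. Cells with a count of either gene were less often called in S or G2M, at 34.1% against 42.0% with pyrvinium and 32.7% against 46.4% with DMSO. The part of this difference in the lower mitochondrial values was not tested. Cells of one library share their culture and preparation, so these values describe the 2 libraries and are not replicates.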

How the data were processed

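Cells of dysplastic mouse stomach organoids kept with pyrvinium or DMSO were profiled by single-cell RNA sequencing with 1 library for each agent. The PIPseq method of Fluent BioSciences was used, per the labels' protocols; it reads the ends of transcripts. Per the submitters' processing notes, Partek and the build GRCm39 were used. Aligner, annotation and strand use: not given in the sources used here. The deposited matrices hold raw counts per gene and barcode, over 353485 pyrvinium and 331629 DMSO barcodes with 64412821 and 64212118 counts.

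The count from which a barcode was kept as a cell was 1/10 of the 99th percentile taken over the 2000 fullest barcodes. Doublets were not removed. Cells were summed by library and divided by the library's sum to give CPM, counts per 1000000, with exact Poisson intervals. Ratios have exact conditional binomial 95% intervals, which, like all intervals here, cover counting error only, since PCR copies and cultures are not modelled. A gene at 0 was set to 3 counts. With 1 library per group there was no test and no p-value. The computation was tested on simulated data. Clusters used 2000 variable genes z-scored within each library, 30 principal components, 15 neighbours and Leiden resolution 0.5 (scanpy 1.11.5, leidenalg 0.10.2). Cell cycle calls used scanpy's scores, and doublet scores Scrublet.

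The members and lists were chosen with earlier results of these data known. Some items are not reported here, among them 1 member, which is kept in the sums and counts. Every other member is named, with full intervals for those at least 1.5-fold different and for the lowest or highest ratios, and from each other list up to 4 genes, those furthest from a ratio of 1 among genes of 10 CPM or more. Promoters, overlaps and older symbols came from RefSeq (GRCm38.p6) and GENCODE M21, used for sequence, names and neighbours only. Alternatives concerned the cell threshold, scaling, weights, depth, free RNA, doublets, cell populations, the fold and the count limit.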

Additional observations from a re-analysis of the deposited data

How the results depend on the processing

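In 11 alternative settings that changed the cells, scaling or weights, the 5 cytosolic genes called higher (Aars, Iars, Nars, Sars and Yars) kept that call, and the count ranged from 5 to 7. The count moved to 11 at 5/4-fold and to 0 at 2-fold, where 14.5% and 3.34% of all genes were called higher. The cytosolic median was 0.51 when clusters were weighted equally and 0.32 in cells called in neither S nor G2M, in place of 0.42. The count of lower mitochondrial genes depended on the setting. It moved from 7 to 4 with a threshold of 1000 counts, when scaled without mitochondrial and ribosomal protein genes or by the median of ratios, to 3 as a mean over cells or when cells were limited to 13100 to 39300 counts in both libraries, and to 2 at 2-fold. The shares of all genes called lower were 15.8%, 12.7% and 12.5% in the settings that gave 4, and 15.5% and 14.8% in those that gave 3. At 5/4-fold, 1 mitochondrial gene was higher. Values within clusters 1, 2, 3 and 5 were added after seeing the data. There the cytosolic count was 12, 8, 7 and 3, and the cytosolic median 0.75, 0.31, 0.32 and 0.15. The count of mitochondrial genes lower was 4 in cluster 1 and 0 in cluster 2, where 1 was higher. The mitochondrial median was 0.042 in cluster 2, opposite in sign to the sums, and -0.48 and -0.66 in clusters 3 and 5, and Pars2 was at 0.22 in cluster 2. The causes were not tested. Of 407 planned values of single genes, 64 moved beyond the interval and 0 called ones changed sign. No paired analysis was possible because each group is 1 library. Depth limits the mitochondrial genes most, since Pars2 rests on 66 and 149 counts.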
